A study of Rattus norvegicus with 6 samples.

Results

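In the rat myocardium, 285 genes had a clearly lower level at 6 h of reperfusion after 30 min of ischemia than after a sham operation. They were not the genes of one cell type. The largest groups among them encode regulators of chromatin and transcription (30 genes), pre-mRNA splicing factors and other RNA-handling proteins (20 and 16 genes), and proteins of membrane traffic and of the ubiquitin system (17 and 15 genes). Genes of the endothelium (15), of lymphocytes (14), of interferon and innate sensing (14), of lipid and fuel use (15) and of the cilium and centrosome (13) were also present. These groups were formed after the member names were seen, and the number of all genes of each kind was not counted. The group sizes are thus no measure of enrichment. No marker of the contractile cardiomyocyte, the fibroblast, pericytes and smooth muscle or the broad endothelium was among the members. In that order, 13, 17, 14 and 35 of these markers had a sham level high enough to be taken. Of all rows that could be taken 4.75% were members, so the absence from lists this short says little about these cell types.

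The genes were selected on the measured values themselves. A row of the table was taken when it carried a gene symbol, when its mean over the sham rats was at least 2 FPKM (fragments scaled by transcript length and by library size), when the mean of the MI/RI rats was at most 0.5 of it, and when every MI/RI value lay below every sham value. Rows whose symbol starts with Mir, Mt-, Zfp, AABR or LOC were left out, which removed 23 rows that otherwise met the rule, 14 of them Zfp genes. Of the 30452 rows, 23360 carried a symbol and 6003 met the sham minimum and the conditions on the name. The 285 members are 4.75% of those 6003 rows. Because the rule used both groups, the difference between the groups in these genes is a description and carries no test. The same rule in the other direction took 1317 rows.

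The samples came from 6 wild-type male rats, 3 per group, and each was bulk RNA of the myocardium. The MI/RI rats had the left anterior descending coronary artery tied for 30 min and the tie released for 6 h before the heart was taken, and the sham rats carry the same times in their labels. The labels name no drug, no strain and no part of the heart, and do not state whether the piece lay inside the area of the closed artery. Replicates are numbered 1 to 3 in each group, and values below are given in that order. In bulk tissue, fewer cells of a type and less RNA per cell cannot be told apart.

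As background, a reperfused heart loses cells, takes in leukocytes and changes its transcription within hours. SR splicing factors and their CLK kinases tune their own transcripts through alternative splicing, and CDK inhibitors hold cells out of the cycle. Endothelial cells line the dense capillary bed of the heart, and small numbers of lymphocytes, mast cells and macrophages live between the muscle cells.

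The samples differed in more than their group. The summed FPKM of 13 cardiomyocyte markers, none of them at 0 in all samples, was 13121, 4491 and 3950 in the sham rats and 38294, 27402 and 26040 in the MI/RI rats. The 13 mitochondrially encoded mRNAs took 80.1%, 85.1% and 86.2% of the summed FPKM in the sham rats and 61.8%, 70.9% and 71.5% in the MI/RI rats. Read totals are not part of the table. The low values gave a rough depth relative to sham 1 of 1.18 and 1.14 in sham 2 and sham 3. In the MI/RI rats it was 0.873, 0.935 and 0.881, so each MI/RI library lay below each sham library. Within the sham group, sham 1 held the lowest value of 211 of the 285 members and sham 2 the highest value of 214. Over the members, the median level as a percent of the sham mean was 75.1%, 125.1% and 99.0% in the sham rats and 32.2%, 39.2% and 38.2% in the MI/RI rats. Over all 6003 eligible rows the same medians were 97.0%, 109.3% and 90.6% against 145.1%, 124.8% and 120.9%. Between the groups, the direction of the members is fixed by the rule. Among the sham rats, sham 1 had the highest cardiomyocyte sum and the lowest median of the members. The part of these differences in the members' values was not tested.

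**Figure D1:**
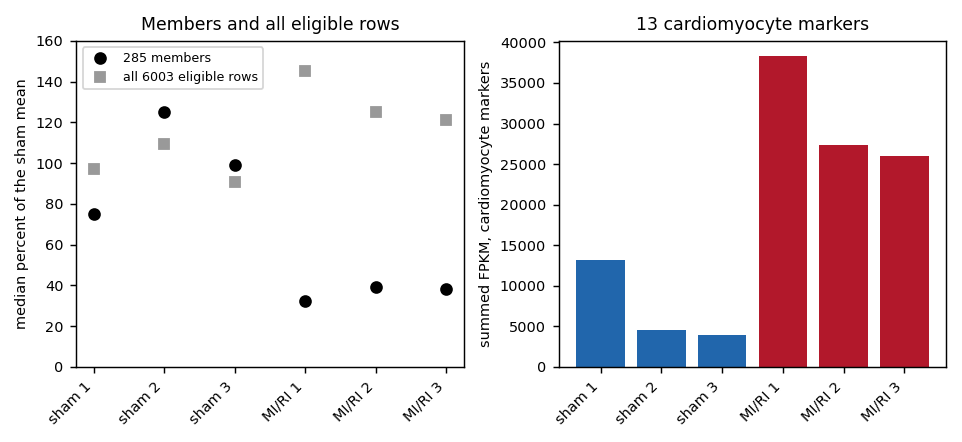
Left, the median level of the 285 members (black) and of all 6003 eligible rows (grey) in each sample, as percent of each gene's sham mean. Right, the summed FPKM of 13 cardiomyocyte markers in each sample. The members lie at 75.1% to 125.1% in the sham rats and at 32.2% to 39.2% in the MI/RI rats, while the cardiomyocyte sum is lowest in sham 2 and sham 3 and highest in MI/RI 1.

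Most members were of low to moderate level. The median of their sham means was 4.25 FPKM, 168 members lay under 5 FPKM and 18 reached 20 FPKM. The ratio of the MI/RI mean to the sham mean had a median of 0.385, with quartiles of 0.298 and 0.437, and 43 members had a ratio of at most 0.25. Between the lowest sham value and the highest MI/RI value the median gap was 1.57-fold, and 52 members had a gap of at least 2-fold. The median coefficient of variation was 28.8% among the sham rats and 24.4% among the MI/RI rats. Of the 6003 eligible rows, 688 (11.5%) had every MI/RI value below every sham value at any ratio.

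**Figure D2:**
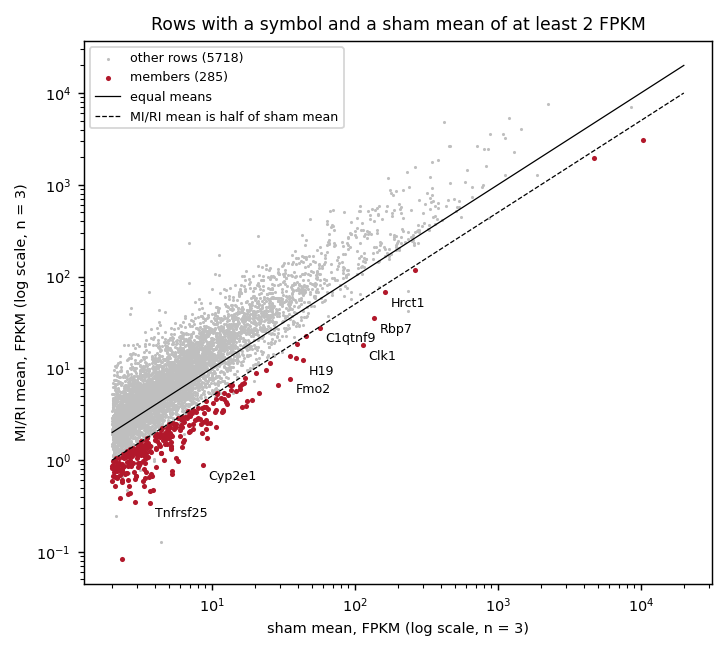
Mean FPKM of the MI/RI rats against mean FPKM of the sham rats on log axes (n = 3 each) for the 6003 eligible rows, with the 285 members in red. The solid line marks equal means and the dashed line a ratio of 0.5, below which all members lie by the rule.

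The members with the highest sham means were not of one kind. Among them were 3 entries named after the sequence record of the rat mitochondrial genome. The entry ENSRNOG00000030478 had 11666, 8940.4 and 10250.2 FPKM in the sham rats and 2546, 3361 and 3262 FPKM in the MI/RI rats. The entry ENSRNOG00000043866 had 5572, 3829 and 4737 FPKM in the sham rats and 1367, 2346 and 2194 FPKM in the MI/RI rats. The third of these, ENSRNOG00000033545, had 379, 192 and 219 FPKM in the sham rats and 61.9, 138 and 151 FPKM in the MI/RI rats. All 3 were lowest in MI/RI 1, the sample with the smallest mitochondrial share, and the symbols do not say which mitochondrial RNA each one is. Hrct1, a small membrane protein rich in histidine, had 111, 221 and 158 FPKM in the sham rats and 48.3, 87.6 and 67.2 FPKM in the MI/RI rats. Rbp7, a retinol-binding protein of endothelial and fat cells, had 76.3, 199.6 and 132 FPKM in the sham rats and 20.02, 48.7 and 36.5 FPKM in the MI/RI rats, with means of 136 ± 61.8 and 35.1 ± 14.4 FPKM (SD, n = 3 each). In both genes sham 2 was highest and MI/RI 1 lowest. C1qtnf9, which encodes a secreted relative of adiponectin, had 50.5, 66.1 and 53.2 FPKM in the sham rats and 21.1, 33.7 and 27.9 FPKM in the MI/RI rats. Ypel3, a gene linked to growth arrest, had 44.5, 47.9 and 44.4 FPKM in the sham rats and 24.7, 18.8 and 24.3 FPKM in the MI/RI rats, and its 3 sham values lay closer together than those of the genes just named. Cyp4b1, a cytochrome P450 of lung and other tissues, had 33.6, 48.97 and 35.7 FPKM in sham and 14.6, 19.5 and 20.6 FPKM in MI/RI.

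**Figure D3:**
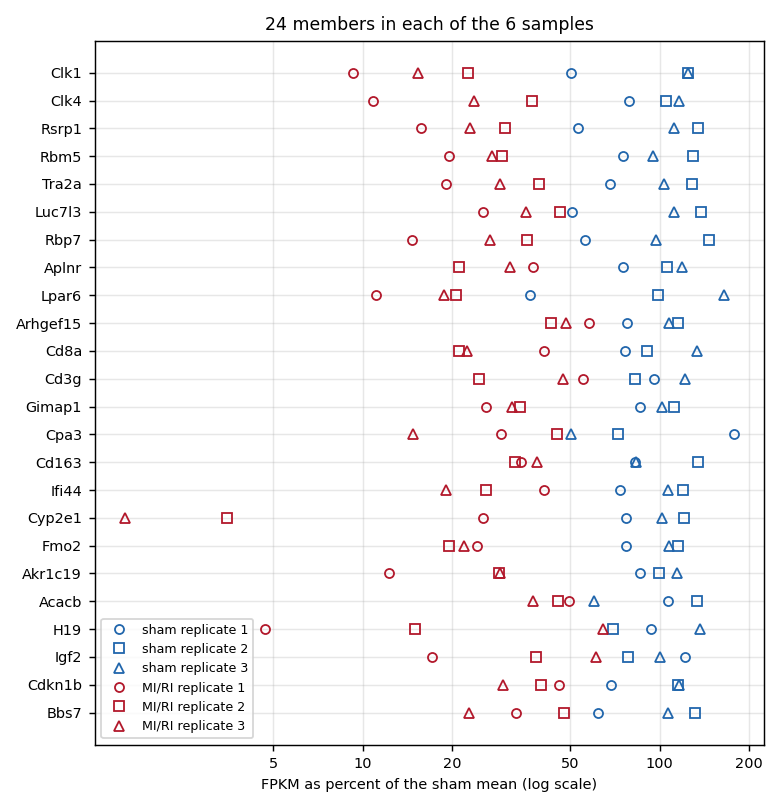
FPKM of 24 members in each of the 6 samples, as percent of each gene's sham mean on a log axis (blue, sham; red, MI/RI; circle, square and triangle for replicates 1, 2 and 3). The red symbols lie left of the blue ones in every row by the rule, and the distance between them ranges from a narrow gap in H19 to a wide one in Fmo2. The genes were picked for the plot after their values were seen.

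Splicing factors formed the group with the lowest median ratio after the members were sorted by known function, at 0.307 over 20 genes. Clk1, a kinase that phosphorylates SR splicing factors, stood out by its level. It had 56.99, 142 and 141 FPKM in the sham rats and 10.5, 25.7 and 17.4 FPKM in the MI/RI rats, with means of 113 ± 48.8 and 17.9 ± 7.59 FPKM (SD, n = 3 each) and a ratio of 0.158. The value of sham 1 was the lowest of the sham rats and that of MI/RI 1 the lowest of all samples. Its close relative Clk4 had sham values of 15.03, 20.02 and 22.2 FPKM against MI/RI values of 2.08, 7.07 and 4.52 FPKM and a ratio of 0.239. The other kinases of the family did not meet the rule. Clk3 had 4.45, 7.099 and 4.83 FPKM in sham and 3.305, 4.09 and 3.72 FPKM in MI/RI, without overlap but with a ratio of 0.678, and Clk2 had 4.41, 5.71 and 4.48 FPKM in sham and 7.98, 5.29 and 5.08 FPKM in MI/RI, with the highest value in MI/RI 1. The CLK family was chosen for description after its values were seen, as were all gene families and all members named outside the naming rule given with the methods.

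Other splicing members shared the sample pattern of Clk1. Rsrp1, a small arginine- and serine-rich nuclear protein, had 15.3, 38.9 and 32.4 FPKM in sham and 4.53, 8.71 and 6.62 FPKM in MI/RI. Rbm5, a regulator of exon choice, had 15.95, 27.5 and 20.3 FPKM in the sham rats and 4.15, 6.28 and 5.79 FPKM in the MI/RI rats. Tra2a, an activator of exon inclusion, had sham values of 8.21, 15.5 and 12.4 FPKM against MI/RI values of 2.303, 4.71 and 3.49 FPKM, whereas its paralog Tra2b had 11.7, 16.3 and 15.5 FPKM in sham and 11.4, 14.6 and 11.4 FPKM in MI/RI, so the groups of Tra2b overlapped. All 3 genes of the LUC7 family, which encode proteins of the U1 snRNP, were members. Luc7l3 had 3.998, 10.8 and 8.81 FPKM in sham and 2.01, 3.65 and 2.796 FPKM in MI/RI. Luc7l and Luc7l2 had ratios of 0.342 and 0.435. Rbm25, Rbm39, Srsf11, Srek1, Prpf39, Prpf18, Ptbp2, Tia1, Paxbp1, Nktr and Gemin2 were also members, with ratios from 0.243 in Paxbp1 to 0.497 in Gemin2. In 18 of the 20 splicing members MI/RI 1 was the lowest of the MI/RI rats, and in 17 sham 1 was the lowest of the sham rats. Over all 285 members, MI/RI 1 alone was lowest in 150.

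The 20th splicing member was a row of the U6 spliceosomal RNA. It had 2.66, 1.87 and 2.53 FPKM in the sham rats and 0, 0 and 0.251 FPKM in the MI/RI rats, and the symbol U6 stands on 796 rows of the table, of which this was the only one that met the rule. Near-identical copies can share reads, so the value of a single U6 row is uncertain.

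**Figure D4:**
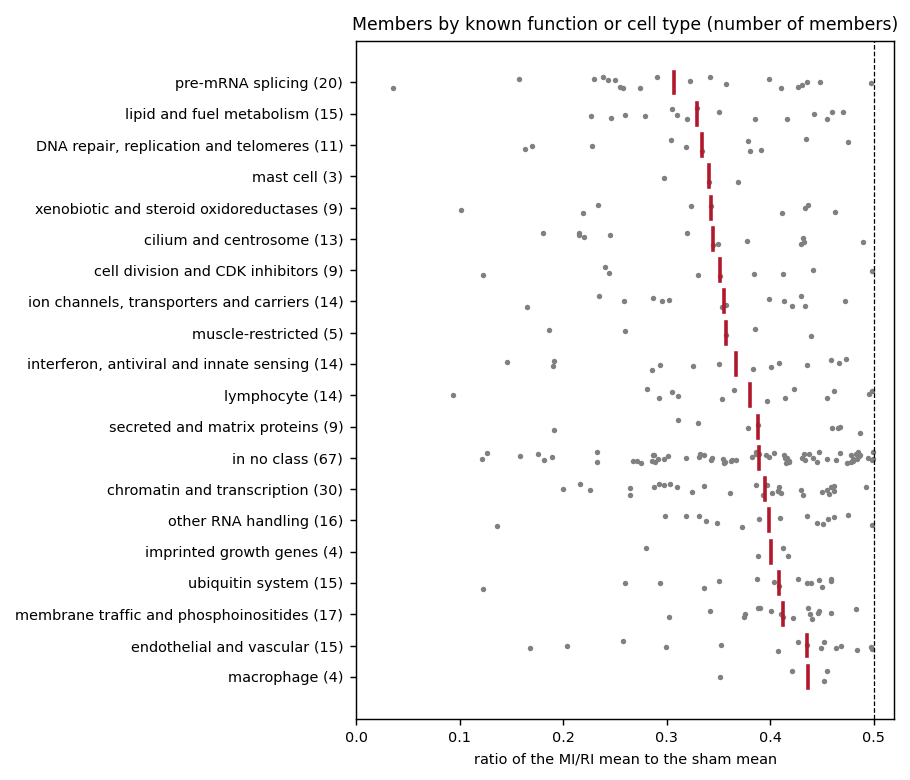
Ratio of the MI/RI mean to the sham mean for each member (grey points), grouped by known function or cell type with the number of members in parentheses. Red bars are group medians, which run from 0.307 in splicing to 0.436 in the macrophage genes, and the dashed line marks the limit of 0.5. Of the members, 18 stand in more than 1 group and 67 in none, and the groups were made after the member names were seen.

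RNA handling outside the spliceosome added 16 members with a median ratio of 0.399. Both subunits of the PAN2-PAN3 deadenylase, which trims poly(A) tails, were members. Pan2 had sham values of 2.46, 4.46 and 3.54 FPKM against MI/RI values of 1.24, 1.59 and 1.45 FPKM. Pan3 had 2.19, 3.32 and 2.52 FPKM in sham and 1.08, 1.48 and 1.01 FPKM in MI/RI. Dgcr8, the partner of Drosha in microRNA processing, had a ratio of 0.461, and Tnrc6a, a scaffold of microRNA silencing, had 0.476. Fmr1, the RNA-binding protein of fragile X syndrome, had 2.404, 4.18 and 4.47 FPKM in the sham rats and 0.8801, 2.11 and 1.32 FPKM in the MI/RI rats. Zc3h11a, a zinc finger gene of mRNA export, had a ratio of 0.436. In 15 of these 16 genes sham 1 was the lowest sham rat. Ddx3, a row for a DEAD-box helicase symbol, had sham values of 3.19, 6.68 and 5.87 FPKM against MI/RI values of 2.14, 0 and 0 FPKM, so it was listed at 0 in MI/RI 2 and MI/RI 3.

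Chromatin and transcription held 30 members with a median ratio of 0.395. Ogt, the enzyme that attaches O-GlcNAc to nuclear and cytoplasmic proteins, had 5.13, 13.7 and 9.93 FPKM in sham and 1.96, 3.08 and 2.597 FPKM in MI/RI and a ratio of 0.265. Ccnt2, a cyclin of the elongation factor P-TEFb, had 3.99, 8.67 and 5.82 FPKM in the sham rats and 0.798, 1.72 and 1.66 FPKM in the MI/RI rats. Setdb1 and Kmt5c, which methylate histone H3 and histone H4, had ratios of 0.396 and 0.402. Zscan26, a zinc finger gene of the SCAN family, had sham values of 6.33, 14.7 and 10.8 FPKM against MI/RI values of 1.31, 3.21 and 2.36 FPKM. Zscan12, of the same family, had 3.32, 3.96 and 3.38 FPKM in sham and 1.53, 1.198 and 1.86 FPKM in MI/RI. The MYM-type zinc finger genes Zmym3, Zmym5 and Zmym6 had ratios of 0.408, 0.298 and 0.2003. Mediator gave Med18 and Med23, with ratios of 0.361 and 0.493. Nr1h3, the oxysterol receptor LXR alpha, had 4.98, 8.27 and 6.24 FPKM in the sham rats and 3.45, 2.94 and 2.47 FPKM in the MI/RI rats. Arntl, the clock factor BMAL1, had sham values of 1.37, 5.05 and 1.03 FPKM against MI/RI values of 0.434, 0.958 and 0.752 FPKM, so that sham 2 lay far above all other samples and sham 1 and sham 3 near the MI/RI values.

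DNA repair, replication and telomere genes gave 11 members with a median ratio of 0.334, and in all 11 sham 1 was the lowest sham rat. Lig4, the ligase of non-homologous end joining, had 1.84, 3.804 and 2.36 FPKM in sham and 0.1495, 0.552 and 0.608 FPKM in MI/RI and a ratio of 0.164. Aplf, another factor of end joining, had 1.68, 2.75 and 2.33 FPKM in the sham rats and 0.354, 0.311 and 0.485 FPKM in the MI/RI rats. Pot1 and Pot1b, which cap telomeres, had ratios of 0.434 and 0.228. Tdp2, which removes topoisomerase adducts from DNA ends, had sham values of 5.98, 11.6 and 13.7 FPKM against MI/RI values of 2.12, 4.87 and 2.99 FPKM. In Pot1 the lowest sham value of 1.06 FPKM and the highest MI/RI value of 1.05 FPKM were almost equal, while in Lig4 and Aplf the groups were far apart.

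Cell division gave 9 members of opposite roles. Cdkn1b, which encodes the CDK inhibitor p27, had 10.2, 17.1 and 17.2 FPKM in sham and 6.79, 5.92 and 4.395 FPKM in MI/RI. Cdkn1c, which encodes p57, had 4.34, 3.19 and 5.53 FPKM in the sham rats and 1.42, 1.87 and 2.09 FPKM in the MI/RI rats. Cdkn2c, which encodes p18, had sham values of 2.63, 6.65 and 2.796 FPKM against MI/RI values of 1.63, 1.29 and 1.07 FPKM. The related inhibitor Cdkn1a, which encodes p21, had 21.9, 24.1 and 2.298 FPKM in sham and 35.7, 40.1 and 25.3 FPKM in MI/RI, with all 3 MI/RI values above the sham values. Cdkn2d overlapped between the groups. Mitotic genes formed the other side. Ube2c, the E2 enzyme of the anaphase-promoting complex, had 2.14, 8.22 and 1.27 FPKM in sham and 0.688, 0.437 and 0.2998 FPKM in MI/RI. Prc1, a protein of the central spindle, had 1.03, 5.21 and 0.757 FPKM in the sham rats and 0.75, 0.529 and 0.432 FPKM in the MI/RI rats. Cdkn3, a phosphatase of cell cycle kinases, had sham values of 1.68, 6.902 and 1.52 FPKM against MI/RI values of 0.902, 0.9502 and 0.576 FPKM. In these 3 mitotic genes sham 2 was by far the highest sample, and sham 1 and sham 3 lay nearer to the MI/RI rats than to sham 2. Stmn1, which destabilizes microtubules, had 9.81, 19.2 and 10.9 FPKM in sham and 7.98, 6.87 and 5.04 FPKM in MI/RI.

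Cilium and centrosome genes gave 13 members with a median ratio of 0.344, and sham 2 was highest in 12 of them. Bbs4 and Bbs7 encode subunits of the BBSome, the complex that carries membrane proteins into cilia. Bbs4 had 2.36, 3.52 and 2.88 FPKM in the sham rats and 1.12, 1.28 and 1.398 FPKM in the MI/RI rats. Bbs7 had sham values of 1.403, 2.96 and 2.41 FPKM against MI/RI values of 0.743, 1.08 and 0.515 FPKM. The centrosomal genes Cep57, Cep85, Cep95 and Cep170 had ratios of 0.377, 0.432, 0.221 and 0.4301. Cep95 was the lowest of these, with 2.99, 5.86 and 4.89 FPKM in sham and 0.684, 0.818 and 1.53 FPKM in MI/RI. Ift140, part of the retrograde transport train of cilia, had a ratio of 0.489, just inside the limit. Iqub, Spag1 and Zmynd10, which serve motile cilia, had ratios of 0.181, 0.215 and 0.246. All 13 genes had low sham means, from 2.04 to 5.49 FPKM.

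Endothelial and vascular genes gave 15 members with a median ratio of 0.435. Aplnr, the apelin receptor, had 6.45, 9.08 and 10.3 FPKM in the sham rats and 3.22, 1.81 and 2.71 FPKM in the MI/RI rats. Its means were 8.601 ± 1.95 and 2.58 ± 0.713 FPKM (SD, n = 3 each), with a ratio of 0.2998. Lpar6, a receptor for lysophosphatidic acid, had sham values of 2.11, 5.65 and 9.46 FPKM against MI/RI values of 0.635, 1.18 and 1.08 FPKM, where sham 1 lay nearer to the MI/RI rats than to sham 3. Ca4, a carbonic anhydrase on capillary surfaces, had 22.3, 27.7 and 26.9 FPKM in sham and 11.8, 10.6 and 12.1 FPKM in MI/RI. Its sham values and its MI/RI values each lay close together. Arhgef15, a guanine nucleotide exchange factor of vessels, had 8.38, 12.5 and 11.6 FPKM in the sham rats and 6.27, 4.67 and 5.24 FPKM in the MI/RI rats. Fgd5, another endothelial exchange factor, had sham values of 6.62, 7.86 and 5.96 FPKM against MI/RI values of 4.31, 2.63 and 3.22 FPKM. Rasa1, a Ras GTPase-activating protein needed for vessel order, had 3.36, 6.64 and 6.06 FPKM in sham and 3.24, 2.16 and 2.13 FPKM in MI/RI, where sham 1 and MI/RI 1 were almost equal. Gucy1a1, a subunit of the nitric oxide receptor, had 4.83, 6.87 and 6.34 FPKM in the sham rats and 1.57, 2.02 and 2.77 FPKM in the MI/RI rats. Mfng, which modifies Notch receptors, had a ratio of 0.435, and Ccm2l, Arap3, Stab1 and Lyl1 had ratios of 0.427, 0.484, 0.452 and 0.408.

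The broad endothelial markers, such as the genes for VE-cadherin and CD31, were tested in a limma fit over the whole table. Over the 10942 genes tested, this fit called 805 lower in MI/RI (7.36%) and 2790 higher (25.5%) at an adjusted p under 0.05. Of 36 endothelial markers it called 1 lower (Ushbp1) and 2 higher, and none of the 35 eligible for the rule was a member. Their summed level was 1380, 2386 and 1511 FPKM in the sham rats and 1258, 1754 and 1478 FPKM in the MI/RI rats, so the groups overlapped. With the replicate number as a block the calls were 3 lower and 6 higher. Without sham 1, 3 were called lower, and without sham 2 limma called 0 lower (1 at an unadjusted p under 0.05) and 5 higher. Scaled over genes other than the mitochondrially encoded mRNAs, 14 were called lower and 1 higher.

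Lymphocyte genes gave 14 members with a median ratio of 0.381. Cd3g, a chain of the T cell receptor complex, had sham values of 4.22, 3.62 and 5.33 FPKM against MI/RI values of 2.42, 1.08 and 2.08 FPKM. Cd8a, the coreceptor of cytotoxic T cells, had 2.304, 2.73 and 4.03 FPKM in sham and 1.23, 0.639 and 0.678 FPKM in MI/RI. Sham 3 was the highest sample in both. The other chains lay under the sham minimum but showed no overlap either, as in Cd3d with 0.866, 0.528 and 0.686 FPKM in sham and 0.357, 0.148 and 0.472 FPKM in MI/RI. The GIMAP genes encode GTPases of lymphocyte survival, some of them also present in endothelium. Gimap1 had 2.605, 3.396 and 3.099 FPKM in the sham rats and 0.788, 1.03 and 0.963 FPKM in the MI/RI rats. Gimap7 had sham values of 2.67, 3.27 and 3.596 FPKM against MI/RI values of 1.26, 1.23 and 0.879 FPKM. Gimap9 had 3.32, 4.96 and 7.34 FPKM in sham and 1.41, 2.31 and 1.97 FPKM in MI/RI. Sham 2 or sham 3 was highest in each of them. Of 7 GIMAP genes, 6 had no overlap (11.5% over all eligible rows), but the 3 members among them were chosen for it. Outside the members, Gimap4, Gimap6 and Gimap8 had no overlap, and Gimap5 overlapped. The most abundant, Gimap4, had 22.1, 25.8 and 25.5 FPKM in sham and 15.04, 13.9 and 11.6 FPKM in MI/RI with a ratio of 0.553. Tnfrsf25, the death receptor DR3 of T cells, had the second-lowest ratio of all members, 0.0936, with 3.3, 4.84 and 2.85 FPKM in the sham rats and 0.0879, 0.752 and 0.189 FPKM in the MI/RI rats. Tbx21, the T-bet factor of Th1 and NK cells, had sham values of 1.45, 1.36 and 3.69 FPKM against MI/RI values of 0.414, 0.678 and 0.808 FPKM. Ctsw, a protease of cytotoxic cells, had 2.28, 3.21 and 5.11 FPKM in sham and 1.61, 1.93 and 1.71 FPKM in MI/RI. Both were highest in sham 3.

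Among 11 T and NK markers tested, limma called 4 lower and 0 higher (0 higher also at an unadjusted p under 0.05), and 2 of the 4 (Cd3g and Cd8a) were members. The others were Klrd1, with a log2 fold change of -1.66 ± 0.48 (SE, adjusted p = 0.0254 by limma), and Tcf7, with -0.81 ± 0.26 (adjusted p = 0.0391 by limma). The count was 2 without sham 2 or MI/RI 1, and 1 without sham 3. The summed level of the markers was 21.0, 27.8 and 38.6 FPKM in the sham rats and 20.4, 18.0 and 18.8 FPKM in the MI/RI rats, so sham 3 stood highest and sham 1 lay beside the MI/RI rats.

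Mast cell proteases showed another sample order. Mcpt1l1, a chymase-like protease, had 66.7, 23.6 and 24.9 FPKM in the sham rats and 8.16, 20.3 and 10.8 FPKM in the MI/RI rats. Tpsab1, a tryptase, had sham values of 9.56, 4.72 and 4.23 FPKM against MI/RI values of 1.62, 3.104 and 2.11 FPKM. Cpa3, the mast cell carboxypeptidase, had 13.01, 5.31 and 3.697 FPKM in sham and 2.14, 3.32 and 1.09 FPKM in MI/RI. In all 3, sham 1 was the highest sample, well above sham 2 and sham 3. Cma1, the chymase gene, overlapped between the groups at 17.1, 6.79 and 7.399 FPKM in sham and 1.63, 9.17 and 3.699 FPKM in MI/RI. The tryptase gene Tpsb2 overlapped too, at 16.2, 6.44 and 6.12 FPKM in sham and 7.2, 5.78 and 6.06 FPKM in MI/RI. Mcpt9 had no overlap but a ratio of 0.622, outside the limit. The mast cell markers summed to 40.2, 22.0 and 16.2 FPKM in the sham rats and 16.7, 15.0 and 13.5 FPKM in the MI/RI rats. Limma called 2 of 6 mast cell markers lower (Cpa3 and Ms4a2), 1 without sham 2, sham 3 or MI/RI 2, and 0 without sham 1, MI/RI 1 or MI/RI 3, where 1, 3 and 2 passed at an unadjusted p under 0.05.

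The macrophage group held 4 members. Cd163, the hemoglobin scavenger receptor of resident macrophages, had 2.19, 3.58 and 2.21 FPKM in the sham rats and 0.908, 0.869 and 1.03 FPKM in the MI/RI rats. Its values were tight within the groups, apart from sham 2. Stab1, Nr1h3 and Clec4a3 had ratios of 0.452, 0.455 and 0.421. Of 12 resident macrophage markers, limma called 2 lower (Cd163 and Mrc1) and 1 higher, and 1 lower when sham 1, sham 2, sham 3, MI/RI 1 or MI/RI 3 was left out. Their median log2 fold change was 0.14, against 0.29 over all genes tested. The 15 macrophage markers found summed to 94.9, 140 and 84.7 FPKM in the sham rats and 99.4, 124 and 143 FPKM in the MI/RI rats, so the groups overlapped. Of the neutrophil markers, 5 of 6 were called higher by limma and 0 lower, adjusted or not. Their sum showed the same, with a summed level of 17.0 to 28.3 FPKM in the sham rats and of 52.1 to 121.1 FPKM in the MI/RI rats, and Mpo listed at 0 in every sample.

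Interferon, antiviral and innate sensing genes gave 14 members with a median ratio of 0.367. Ifi44, an interferon-induced gene, had sham values of 8.63, 14.04 and 12.5 FPKM against MI/RI values of 4.77, 3.05 and 2.24 FPKM, with means of 11.7 ± 2.79 and 3.35 ± 1.29 FPKM (SD, n = 3 each). Its neighbour Ifi44l had 2.995, 5.15 and 4.84 FPKM in sham and 1.76, 1.45 and 1.02 FPKM in MI/RI. Il15, a cytokine that sustains NK and memory T cells, had 5.99, 10.2 and 11.4 FPKM in the sham rats and 1.05, 1.68 and 2.53 FPKM in the MI/RI rats and a ratio of 0.191. Slfn13, a schlafen ribonuclease, had sham values of 3.67, 7.48 and 4.48 FPKM against MI/RI values of 0.334, 0.924 and 1.03 FPKM. Casp1, an inflammatory caspase that cleaves gasdermin D, had 4.19, 4.18 and 5.403 FPKM in sham and 1.84, 1.68 and 1.76 FPKM in MI/RI. Casp4, its neighbour with a like role, had 3.94, 8.49 and 8.68 FPKM in the sham rats and 3.09, 3.14 and 3.62 FPKM in the MI/RI rats. Casp8, which starts death receptor apoptosis, had sham values of 2.23, 3.41 and 3.64 FPKM against MI/RI values of 1.82, 1.33 and 1.25 FPKM. Trim5, an antiviral ubiquitin ligase, had 1.97, 3.56 and 2.72 FPKM in sham and 1.08, 1.18 and 1.33 FPKM in MI/RI. Trim34, its neighbour, had 2.45, 4.07 and 2.95 FPKM in the sham rats and 0.931, 0.938 and 0.911 FPKM in the MI/RI rats. Across 22 interferon response genes the fit called 1 lower, Ifi44, and 3 higher, and 18 passed in neither direction. With the replicate block it called 2 lower. With mitochondrial mRNAs left out of the scaling, the balance turned, with 14 lower and 1 higher.

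Xenobiotic and steroid enzymes gave 9 members with a median ratio of 0.343. Cyp2e1, an ethanol- and ketone-metabolising P450, had sham values of 6.63, 10.4 and 8.77 FPKM against MI/RI values of 2.19, 0.301 and 0.137 FPKM and the third-lowest ratio, 0.102. MI/RI 1 lay well above the other MI/RI rats and still below each sham rat. Cyp2t1 had 3.696, 3.14 and 3.59 FPKM in sham and 1.46, 1.01 and 1.102 FPKM in MI/RI. Cyp2d4 had 2.63, 4.66 and 2.78 FPKM in the sham rats and 1.46, 0.9603 and 1.94 FPKM in the MI/RI rats. Fmo1, a flavin monooxygenase that oxidizes drugs and amines, had sham values of 7.999, 9.298 and 9.03 FPKM against MI/RI values of 3.91, 3.81 and 3.77 FPKM. Fmo2, its neighbour in the genome, had 26.99, 40.4 and 37.8 FPKM in sham and 8.53, 6.86 and 7.7 FPKM in MI/RI. The means of Fmo2 were 35.04 ± 7.09 and 7.698 ± 0.838 FPKM (SD, n = 3 each), and its groups lay far apart. Akr1c19, an aldo-keto reductase, had 13.9, 16.1 and 18.5 FPKM in the sham rats and 1.99, 4.68 and 4.71 FPKM in the MI/RI rats. Akr1c14 had sham values of 12.2, 11.6 and 14.1 FPKM against MI/RI values of 3.94, 3.76 and 4.58 FPKM. The more abundant Akr1c15 had 49.5, 67.3 and 49.1 FPKM in sham and 95.9, 53.98 and 51.6 FPKM in MI/RI, highest in MI/RI 1. Gsta6, a glutathione transferase, had 12.7, 19.9 and 14.6 FPKM in sham and 5.75, 7.11 and 6.55 FPKM in MI/RI. Of 20 P450 and epoxide hydrolase genes, limma called 5 lower and 4 higher, and 4 of the 5 were members. Without sham 2 or without MI/RI 2 it called 3 lower.

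Lipid and fuel genes gave 15 members with a median ratio of 0.329. Acacb, the carboxylase whose product malonyl-CoA limits fatty acid entry into mitochondria, had 13.03, 16.3 and 7.34 FPKM in the sham rats and 6.03, 5.58 and 4.59 FPKM in the MI/RI rats. Pfkfb2, the heart-type enzyme that makes the glycolytic activator fructose 2,6-bisphosphate, had sham values of 2.56, 3.46 and 2.49 FPKM against MI/RI values of 0.777, 0.999 and 0.432 FPKM. Pck2, the mitochondrial form of PEP carboxykinase, had 3.66, 5.84 and 5.06 FPKM in sham and 1.799, 1.19 and 1.53 FPKM in MI/RI. Crot, a peroxisomal carnitine transferase, had 2.33, 3.43 and 3.21 FPKM in the sham rats and 1.31, 0.8398 and 0.991 FPKM in the MI/RI rats. Gpcpd1, a glycerophosphodiesterase, had sham values of 18.2, 19.5 and 13.9 FPKM against MI/RI values of 3.49, 3.31 and 4.95 FPKM, with all 3 MI/RI values under 5 FPKM. Of 24 genes of fatty acid use, limma called 16 higher and 1 (Acacb) lower, and it called 10 higher without sham 2 and 9 without sham 3. The replicate block gave 2 lower, and scaling without mitochondrial mRNAs gave 3 lower and 9 higher.

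Imprinted genes, several of which restrain or promote fetal growth, gave 4 members. H19, a noncoding RNA, had 40.6, 30.4 and 59.6 FPKM in sham and 2.04, 6.52 and 28.04 FPKM in MI/RI. Igf2, its neighbour and a growth factor, had 42.4, 27.4 and 35.1 FPKM in the sham rats and 5.99, 13.4 and 21.4 FPKM in the MI/RI rats. In both genes MI/RI 1 was lowest and MI/RI 3 highest of the MI/RI rats, and sham 2 was the lowest sham rat. Cdkn1c shared the low value in sham 2, and Mest had sham values of 2.36, 3.77 and 2.81 FPKM against MI/RI values of 1.37, 0.996 and 1.36 FPKM. Of 10 imprinted genes examined, 7 had a sham mean of at least 2 FPKM. Of these, 6 had every MI/RI value below every sham value (11.5% over all eligible rows). The 4 members among the 6 were chosen for this by the rule, and the others were Grb10 and Slc22a18. The exception among the 7, Igf2r, had 2.59, 3.601 and 2.801 FPKM in sham and 5.24, 3.37 and 2.77 FPKM in MI/RI. Among secreted proteins, Ptn, the growth factor pleiotrophin, had 14.3, 18.6 and 17.8 FPKM in sham and 6.97, 7.43 and 9.34 FPKM in MI/RI. Omd, the matrix protein osteomodulin, had 4.37, 6.42 and 7.47 FPKM in the sham rats and 2.47, 2.15 and 2.296 FPKM in the MI/RI rats. Adamts10, a protease linked to fibrillin, had sham values of 6.63, 15.4 and 9.86 FPKM against MI/RI values of 2.62, 3.78 and 4.104 FPKM.

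Channels, transporters and carriers gave 14 members with a median ratio of 0.356. Kcnd3, the Kv4.3 subunit of the transient outward current, had 1.46, 3.05 and 2.799 FPKM in sham and 0.633, 1.13 and 0.844 FPKM in MI/RI. Kcnk3, the leak channel TASK-1, had 25.3, 7.57 and 7.75 FPKM in the sham rats and 5.88, 7.08 and 4.502 FPKM in the MI/RI rats, so sham 1 carried its mean and sham 2 and sham 3 lay close to MI/RI 2. Limma called Kcnd3 and Kcnj8 lower among 18 potassium channels and 7 higher, 1 lower without MI/RI 2, and 0 lower without sham 2 or sham 3, where 3 and 4 were lower at an unadjusted p under 0.05. Slc28a2, a nucleoside carrier, had sham values of 18.7, 31.3 and 21.3 FPKM against MI/RI values of 7.2, 11.5 and 9.78 FPKM. Slc7a6, an amino acid exchanger, had 8.12, 16.3 and 11.4 FPKM in sham and 2.403, 4.101 and 3.76 FPKM in MI/RI. Slc25a36, a mitochondrial pyrimidine nucleotide carrier, had 4.47, 11.8 and 9.08 FPKM in the sham rats and 1.24, 2.43 and 2.27 FPKM in the MI/RI rats. Slc35b3, a Golgi carrier of the sulfate donor PAPS, had sham values of 1.87, 4.26 and 3.78 FPKM against MI/RI values of 0.432, 0.917 and 1.58 FPKM. Abcc5, a pump for cyclic nucleotides, had 3.84, 7.24 and 4.36 FPKM in sham and 1.35, 1.33 and 1.32 FPKM in MI/RI, and its 3 MI/RI values were almost equal. Abcg3l2 had 1.73, 3.698 and 2.12 FPKM in the sham rats and 0.834, 1.204 and 1.24 FPKM in the MI/RI rats. Abcg3l3 had sham values of 1.69, 3.43 and 2.601 FPKM against MI/RI values of 0.674, 0.191 and 0.412 FPKM. These names belong to paralogs whose reads may be shared, so the values of each are uncertain.

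Genes grouped as muscle-restricted were few, 5 of the 285, although not all of them are expressed in muscle alone. Asb15, an ankyrin repeat protein of muscle, had 7.15, 4.24 and 7.598 FPKM in sham and 1.33, 0.9899 and 2.62 FPKM in MI/RI, with sham 2 the lowest sham rat. Mss51, which acts on muscle mitochondria, had 1.83, 4.39 and 3.98 FPKM in the sham rats and 0.0683, 1.29 and 0.541 FPKM in the MI/RI rats. Trarg1, a protein of GLUT4 vesicles, had sham values of 1.46, 2.396 and 2.32 FPKM against MI/RI values of 1.16, 0.574 and 0.648 FPKM. Klhl33 had 2.06, 3.78 and 1.49 FPKM in sham and 1.25, 0.712 and 1.26 FPKM in MI/RI. Of 13 cardiomyocyte markers, limma called 10 higher and 0 lower, adjusted or not, with a median log2 fold change of 2.28, and 12 were called higher without sham 1.

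Membrane traffic and phosphoinositide genes gave 17 members, and the ubiquitin system 15, with medians of 0.413 and 0.409. Arfip2, an arfaptin of the trans-Golgi, had 7.79, 16.9 and 12.6 FPKM in the sham rats and 2.62, 5.29 and 4.83 FPKM in the MI/RI rats. Ppip5k2, an inositol pyrophosphate kinase, had sham values of 5.48, 10.2 and 10.8 FPKM against MI/RI values of 1.32, 4.09 and 4.49 FPKM. Inpp5b, Inpp5f and Mtmr11 are phosphatases of inositol lipids or their relatives, with ratios of 0.413, 0.448 and 0.4004. Usp33 and Usp40, which remove ubiquitin, had ratios of 0.351 and 0.336. Mdm4, a p53 inhibitor, had 3.18, 6.96 and 3.44 FPKM in sham and 1.51, 2.36 and 1.61 FPKM in MI/RI. Fbxo9, an F-box subunit of SCF ligases, had 2.11, 4.3 and 2.53 FPKM in the sham rats and 1.36, 1.304 and 1.44 FPKM in the MI/RI rats. Of 177 ubiquitin ligase and adaptor genes, limma called 16 lower and 37 higher, and 7 were members. The shares were 9.04% and 20.9%. The lower calls were 5 to 17 with 1 library left out, with 5 without sham 2, 6 without sham 3 or MI/RI 3 and 10 without MI/RI 2, and the higher calls were 20 without sham 3. Scaled without mitochondrial mRNAs, 60 were called lower and 15 higher, which turned the balance.

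G protein-coupled receptors gave 3 members, 2 of which, Aplnr and Lpar6, were given with the endothelial genes. Gabbr1, the metabotropic GABA receptor subunit, had sham values of 2.54, 4.84 and 2.96 FPKM against MI/RI values of 1.11, 2.04 and 1.68 FPKM. Of 44 such receptors, limma called 5 lower and 14 higher, and 2 lower without sham 2, sham 3, MI/RI 1 or MI/RI 3. Scaling without mitochondrial mRNAs turned this to 15 lower and 3 higher. Rasa4, a Ras GTPase-activating protein, had 3.505, 4.84 and 6.201 FPKM in sham and 2.09, 2.01 and 1.69 FPKM in MI/RI.

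Among the 67 members in no group, several had very low MI/RI values. Cpne7, a copine, had 2.699, 2.29 and 3.64 FPKM in the sham rats and 0.325, 0.512 and 0.211 FPKM in the MI/RI rats. Ccdc62 had sham values of 2.45, 5.31 and 3.28 FPKM against MI/RI values of 0.159, 0.3798 and 0.859 FPKM. Gm24336 had 1.82, 5.61 and 3.35 FPKM in sham and 0, 1.77 and 0.188 FPKM in MI/RI, and was listed at 0 in MI/RI 1. The entry ENSRNOG00000053353 had 1.97, 5.43 and 2.61 FPKM in the sham rats and 0, 1.58 and 0 FPKM in the MI/RI rats. The entry ENSRNOG00000057204 had sham values of 3.26, 4.01 and 4.17 FPKM against MI/RI values of 0, 0 and 2.02 FPKM. With U6 and Ddx3, these make the 5 members listed at 0 in an MI/RI rat. Tmem140 had 14.4, 10.7 and 5.32 FPKM in sham and 3.55, 4.61 and 4.52 FPKM in MI/RI, with sham 3 near MI/RI 2. Hmgb2l1 had 9.88, 28.1 and 10.8 FPKM in the sham rats and 8.37, 5.68 and 6.33 FPKM in the MI/RI rats, with sham 2 far above sham 1 and sham 3, and its symbol stands on 2 rows of the table. Castor1, an arginine sensor of the mTORC1 pathway, had sham values of 14.3, 19.5 and 13.2 FPKM against MI/RI values of 4.14, 6.64 and 7.19 FPKM. Mettl7a had 19.2, 19.1 and 22.9 FPKM in sham and 11.3, 6.34 and 8.92 FPKM in MI/RI.

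The limit of the rule did not fall in a gap. The members closest to it were Ager, Dapk1, Stmn1 and Gigyf1, with ratios of 0.499, 0.499, 0.499 and 0.498. The rows just outside were Taf8, Supt20h, Rfesd and Tnfsf10, at 0.501, 0.502, 0.502 and 0.503. Another 30 rows had a ratio of at most 0.5 but overlapped between the groups.

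Lists of cell type markers and pathway genes put these members beside whole pathways. The median log2 fold change over all genes tested was 0.29. Of the 285 members, 279 were among the lower calls, which the choice of members fixes. The 41 lists held 53 of the members. The cilium list, which also takes the centrosomal genes named Cep, had the most members. These were 8 of 23 eligible (34.8%), against 4.75% of all eligible rows. The share was 33.3% in the P450 (4 of 12), potassium channel (2 of 6), T and NK (2 of 6) and mast cell (1 of 3) lists. It was 27.3% in the cell cycle list (3 of 11) and lower in all other lists with eligible genes. Of the 58 genes tested in the cilium list, 12 were called lower (20.7%) and 4 higher (6.90%). Over all genes tested the shares were 7.36% lower and 25.5% higher. The lower calls outside the members were Cep43, Cep57l1, Ift74 and Mks1. Without sham 2 the lower calls were 4, and without sham 3 they were 6. Of 24 cell cycle genes 6 were lower and 3 higher, with Bub1, Ccna2 and Mki67 beside the 3 CDK inhibitors, and 3 were lower without sham 2, without MI/RI 1 or without MI/RI 3. The replicate block called 5 of them higher. Small structural and nucleolar RNAs gave 6 lower and 2 higher of 47, 12 lower with the replicate block, and 1 without sham 2 or MI/RI 1.

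**Figure D5:**
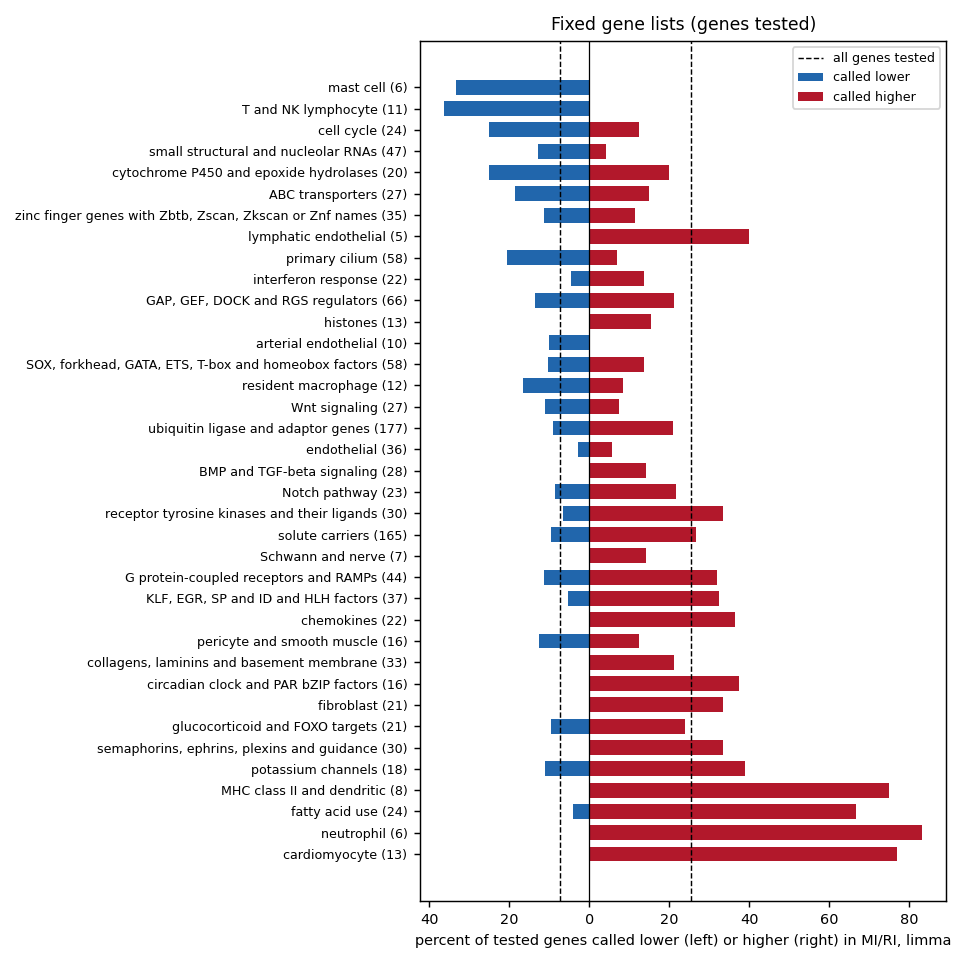
Percent of the tested genes of each fixed list that limma called lower (blue, left) or higher (red, right) in MI/RI, for lists with at least 5 genes tested, sorted by median log2 fold change, with the number tested in parentheses. Dashed lines mark the shares over all genes tested, 7.36% lower and 25.5% higher. The cardiomyocyte, neutrophil, MHC class II and fatty acid lists reach farthest to the right, and the T and NK and mast cell lists farthest to the left.

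All list counts depend on the scale of the values. Scaled over genes other than the mitochondrially encoded mRNAs, 3010 genes were called lower and 791 higher, and quantile normalization gave 1558 and 1441, against 805 and 2790. Without mitochondrial mRNAs the lower calls were 30 in the cilium list, 15 in the cell cycle list, 14 in the small RNA list, 11 in the P450 list, 8 in the T and NK list, 5 in the mast cell list and 3 in the macrophage list, with at most 2 higher calls in each. Other settings gave fewer. The smallest count of lower calls in any setting was 0 in the cilium, T and NK, mast cell and macrophage lists. It was 1 in the cell cycle, small RNA and P450 lists. The median of all genes, 0.29 on the log2 scale, moved to -0.48 without mitochondrial mRNAs and to -0.02 with quantile normalization. Leaving out the mitochondrial mRNAs raised all sham values and lowered all MI/RI values. No member could therefore fail the rule on that scale, where it took 1611 rows. With quantile normalization the rule took 669 rows, and each of the 285 members was among them. As TPM, it took 219 rows, of which 203 were members here. The median of the T and NK list lay below that of all genes in every one of 17 alternatives, with differences from -1.14 to -0.35 on the log2 scale. The cilium median did likewise, with -0.58 to -0.11. These lists were not alone in this, as 19 of the 41 lists kept the sign of their difference in every setting. All settings reuse the same 6 samples. For the cell cycle list the difference ran from -1.07 to 0.50, so its sign was not kept. Without sham 2 the rule took 206 rows, 192 of them members here, and without sham 1 it took 442, 279 of them members here.

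Some members lie close together in the genome. In the RefSeq gene order, 13 pairs of members had at most 2 genes between them. The number of such pairs among as many other eligible genes was not counted, so 13 is no measure of clustering. Among them were Trim34 with Trim5, H19 with Igf2, Fmo1 with Fmo2, Casp1 with Casp4, and Ifi44 with Ifi44l. Gimap7 lay next to Gimap1, with 2 genes between Gimap9 and Gimap7. The others were Idua with Dgkq, Dph7 with Pnpla7, Iqub with Asb15, Asb15 with Wasl, Cep57 with Fam76b, and Uba7 with Inka1. Overlapping or paralogous genes can share reads.

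The promoters of the members were read from RefSeq windows of 250 bases before to 50 bases after the start, in build GRCr8. Of the members, 274 matched a RefSeq symbol and 219 had exactly 1 window, against 4609 of the eligible rows and 24206 symbols in all. The members' windows had a median G+C content of 58.7%, against 61.3% in the eligible rows and 52.7% in all. The GC box GGGCGG stood in 53.9% of the members' windows, 66.5% of those of eligible rows and 35.9% of all. The ETS core CCGGAA stood in 24.2%, 31.6% and 16.2%. The forkhead core GTAAACA was in 7.76% of the members' windows (17 genes), 2.54% of those of eligible rows and 3.80% of all, and the SOX core AACAAT in 9.59%, 5.10% and 11.6%. The CCAAT box (CCAAT) was near equal in the 3 sets, at 40.2%, 39.4% and 37.8%. The TATA box TATAAA stood in 7.76% of the members' windows and 6.47% of those of eligible rows, the GATA core AGATAA in 6.85% and 5.71%, and the RBPJ core TGGGAA in 25.1% and 22.8%. The E-box CACGTG stood in 7.76% and 9.94%, and the D-box TTACGTAA or TTATGTAA in 0.913% and 0.499%. Both strands were searched, motifs may overlap, and a match is a run of letters, not a bound site. The forkhead letters were the ones with the highest share in members relative to eligible rows among the motifs searched, and were picked for display after the shares were seen. Below are the windows of the 3 members with the highest sham means among those 17, 5′ to 3′ on the strand of the gene, with the match or its reverse complement in capitals.

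Ypel3: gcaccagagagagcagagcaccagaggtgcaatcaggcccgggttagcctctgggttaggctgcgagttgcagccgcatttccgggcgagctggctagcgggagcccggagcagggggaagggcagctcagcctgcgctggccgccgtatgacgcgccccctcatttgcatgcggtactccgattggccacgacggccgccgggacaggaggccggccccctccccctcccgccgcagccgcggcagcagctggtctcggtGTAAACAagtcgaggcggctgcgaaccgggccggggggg
Hmgb2l1: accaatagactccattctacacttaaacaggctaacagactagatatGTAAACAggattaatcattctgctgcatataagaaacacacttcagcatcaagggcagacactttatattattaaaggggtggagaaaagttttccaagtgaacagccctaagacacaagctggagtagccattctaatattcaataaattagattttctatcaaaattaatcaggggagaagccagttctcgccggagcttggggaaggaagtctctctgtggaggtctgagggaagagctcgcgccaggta
Tspan8: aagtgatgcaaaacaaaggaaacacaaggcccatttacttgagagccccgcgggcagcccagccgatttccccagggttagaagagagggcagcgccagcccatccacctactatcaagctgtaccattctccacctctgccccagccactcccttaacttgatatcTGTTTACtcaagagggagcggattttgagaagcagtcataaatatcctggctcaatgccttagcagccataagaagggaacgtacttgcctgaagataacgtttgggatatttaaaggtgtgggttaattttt

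In Ypel3, at chr1:190814706-190815005 on the plus strand, the match begins at base 12 after the start. In Hmgb2l1, at chr11:60722559-60722858 on the minus strand, it begins at base -203 from the start. In Tspan8, at chr7:53330937-53331236 on the plus strand, the reverse complement TGTTTAC begins at base -83. Tspan8, a tetraspanin, had 11.3, 15.7 and 14.6 FPKM in the sham rats and 6.46, 7.15 and 6.27 FPKM in the MI/RI rats, with tight values in both groups, whereas Hmgb2l1 rested on sham 2 as described above.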

How the data were processed

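Total RNA of the myocardium of 3 sham and 3 MI/RI rats was sequenced with a stranded total RNA kit. The authors deposited 1 table of FPKM values per gene and sample, divided by gene length and library size. The submitters' processing notes name STAR and HTSeq. The genome build, the annotation and the total behind the FPKM values are not given in the sources used here, and read totals are unknown. Columns were matched to samples by name.

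The rule for the members was applied to the rows as deposited. The members, the marker lists and the gene lists were chosen with earlier results of these data known, and the functional groups and families after the member names were seen. By the naming rule, the 10 highest sham means, the 10 lowest ratios, up to 4 members of each list with at least 2 members, and the rows nearest the limit were named. All other members and relatives were chosen after their values were seen.

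Rows sharing a symbol were summed, and the 10942 genes with a mean of at least 0.5 FPKM were compared on log2(FPKM + 0.1) with limma 3.58.1 in R 4.3.3 (intensity trend, Benjamini-Hochberg adjustment, threshold 0.05). The fold changes are on this log2 scale and understate low genes. The fit was checked on simulated data. The labels number the rats but do not say that they were operated in pairs, and the p-values measure the spread between these samples. Same-numbered samples deviated together (correlations 0.203, 0.117 and 0.118), although sham 3 with MI/RI 2 gave 0.120. These values do not settle whether the numbers are pairs. The p-values and calls come from the fit without a block, except where the block is named. A fit with the replicate number as a block was made as an alternative. Alternatives changed the rule's limits, the scale, the filter, the pseudocount and the libraries used. RefSeq supplied promoter windows and gene order. Some genes are not reported here.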

Additional observations from a re-analysis of the deposited data

How the results depend on the processing

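The number of members, 285, was 444 at a ratio limit of 0.6 and 162 at 0.4, 462 at a sham minimum of 1 FPKM and 117 at 5 FPKM. It was 1611 when the mitochondrial mRNAs were left out of the scaling, 499 with median centring and 669 with quantile normalization, and 206 to 442 with 1 library left out, lowest without sham 2 and highest without sham 1. The median ratio of the members, 0.385, was 0.436 as TPM, 0.218 without mitochondrial mRNAs, 0.328 with median centring and 0.302 with quantile normalization. Genes called lower, 805, were 166 at a mean of at least 5 FPKM, 527 as TPM, 3010 without mitochondrial mRNAs, 1558 with quantile normalization, 1554 with median centring and 305 to 880 with 1 library left out, with 305 without sham 2 and 348 without sham 3. Genes called higher, 2790, were 3477 as TPM, 791 without mitochondrial mRNAs, 1441 with quantile normalization, 2020 with median centring and 1526 to 2567 with 1 library left out, lowest without sham 3. Of the cell type markers, 13 were called lower, and 6 without a filter, 4 at 5 FPKM, 5 as TPM, 47 without mitochondrial mRNAs, 31 with quantile normalization, 21 with median centring and 4 to 12 with 1 library left out, with 4 without sham 2 or sham 3, 6 without MI/RI 1, 7 without MI/RI 2 and 8 without MI/RI 3. With the replicate number as a block, 895 genes were called lower and 3085 higher, and 17 cell type markers lower. In list counts given in the report, the block is named beside each that it moved by over 1.5 times. The cause of these differences was not tested. The depth is unknown, so no counting error can be given, and members near 2 FPKM are the least certain.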
